A study of Mus musculus with 18 samples.

Results

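Hedgehog signaling was represented by 9 genes: the ligands *Shh*, *Ihh* and *Dhh*, the receptors and transducers *Ptch1* and *Smo*, the decoy receptor *Hhip*, and the transcription factors *Gli1*, *Gli2* and *Gli3*. They were chosen by gene symbol, and all 9 were found among the 52636 genes of the count table. RNA was sequenced from mouse retinal pigment epithelium (RPE) at postnatal day (P) 14, in 18 libraries that form 6 groups of 3. All mice were C57BL/6. The uninjected group received no virus. The other 5 groups were injected at birth with an AAV8 vector whose cargo was driven by the *Best1* promoter, which is active in RPE. The GFP group carried green fluorescent protein, and the nSREBP2 group carried the nuclear, active form of SREBP2, a transcription factor of cholesterol synthesis encoded by *Srebf2*. The ctrl sh group carried a hairpin RNA against LacZ, a bacterial gene, and the *Lrp2* sh1 and *Lrp2* sh2 groups carried different hairpins against *Lrp2*. *Lrp2* encodes megalin, an endocytic receptor of the LDL receptor family that also binds hedgehog ligands. Both eyes of a mouse were pooled, and RPE was triturated from an eyecup that also holds choroid and sclera. Markers of endothelium and fibroblasts had counts in every library, so the levels are not those of RPE alone.

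Hedgehog ligands are secreted proteins that bind patched (PTCH1) on a receiving cell. Without ligand, patched holds smoothened (SMO) inactive; bound ligand releases SMO, and GLI proteins then turn on target genes. *Gli1*, *Ptch1* and *Hhip* are themselves targets of this signal in most tissues, so their mRNA is widely used as its readout. In the eye, Indian hedgehog comes from the choroidal endothelium next to the RPE, and the mesenchyme that forms sclera responds to it.

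Depth was 8921885 to 13696934 counts per library, and levels are given as CPM (a gene's share of its library's counts times 1e+06), with library sizes scaled by the trimmed mean of M values (TMM). All 10 RPE markers, such as *Rpe65* and *Tyrp1*, had counts in every library, and their summed level was 4309 to 10823 CPM in uninjected libraries and 2051 to 5651 CPM in the 15 injected ones. *Tyrp1* carried much of that sum, with group means of 1769 to 2380 CPM. Across all libraries, 12 endothelium markers summed to 1982 to 3518 CPM and 8 fibroblast markers to 18647 to 85743 CPM. *Rpe65*, an enzyme of the visual cycle, had 819 ± 395 CPM in uninjected libraries, 1.65 ± 0.63 CPM with GFP, 3.12 ± 0.64 CPM with nSREBP2, 33.8 ± 54.7 CPM with ctrl sh, 17.6 ± 22.9 CPM with *Lrp2* sh1 and 8.18 ± 6.48 CPM with *Lrp2* sh2 (SD, n = 3), so this defining marker was near 0 in several injected groups. In GFP versus uninjected, 7 of the 10 RPE markers were lower at an adjusted *P* under 0.05 (edgeR), with a median log2FC of −3.17 over the 10. *Lrp2* had 55.9, 139 and 150.4 CPM in uninjected libraries, 176, 159.7 and 87.9 with GFP, and 166, 87.7 and 100.2 with ctrl sh. It had 37.7, 29.95 and 25.1 CPM with nSREBP2, 29.7, 42.8 and 38.1 with *Lrp2* sh1, and 37.7, 34.6 and 43.6 with *Lrp2* sh2, so the last 3 groups lay below every control library. *Srebf2* was 216 ± 14.4 CPM with nSREBP2 and 101 ± 15.5 CPM with GFP (SD, n = 3).

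The genes lie apart in the genome (GRCm38, GENCODE M21 annotation). *Ihh* spans chr1:74945315-74951672, *Ptch1* chr13:63508328-63573598, *Hhip* chr8:79965851-80058006 and *Gli1* chr10:127329882-127341974, all on the minus strand. *Smo* lies at chr6:29735503-29761365 and *Gli3* at chr13:15463235-15730026 on the plus strand. *Shh* (chr5:28456815-28467256), *Dhh* (chr15:98891152-98898540) and *Gli2* (chr1:118834132-119053619) are on the minus strand. Exons of genes on the other strand overlap 28.3% of the exon bases of *Shh*, 25.2% of *Dhh* (through *Gm49442* and *Rhebl1*), 6.55% of *Gli1* (through *Arhgap9* and *Gm47200*), 1.96% of *Gli3* and 1.93% of *Hhip*. The use of strand in counting was not stated, so counts of these 5 genes are less certain than those of *Ihh*, *Ptch1*, *Smo* and *Gli2*, which overlap no other exon.

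The bases before the transcription start are shown for *Ihh*, *Ptch1* and *Hhip*, the 3 members with the largest decreases that had an entry, so that what these promoters share can be seen. Each is the 250 bases upstream of the RefSeq start (GRCm38.p6, minus strand, written 5′ to 3′): *Ihh* at chr1:74951673-74951922, *Ptch1* at chr13:63565736-63565985 and *Hhip* at chr8:80058009-80058258. None holds an exon base of its gene. The *Ptch1* window lies within the longer gene that GENCODE annotates. Capitals mark a match to a searched motif.
Ihh: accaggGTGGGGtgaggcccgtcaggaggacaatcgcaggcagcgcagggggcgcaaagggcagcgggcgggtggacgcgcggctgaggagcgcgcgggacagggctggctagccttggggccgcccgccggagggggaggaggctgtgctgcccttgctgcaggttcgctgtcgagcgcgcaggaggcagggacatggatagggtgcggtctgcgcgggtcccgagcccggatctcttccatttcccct
Ptch1: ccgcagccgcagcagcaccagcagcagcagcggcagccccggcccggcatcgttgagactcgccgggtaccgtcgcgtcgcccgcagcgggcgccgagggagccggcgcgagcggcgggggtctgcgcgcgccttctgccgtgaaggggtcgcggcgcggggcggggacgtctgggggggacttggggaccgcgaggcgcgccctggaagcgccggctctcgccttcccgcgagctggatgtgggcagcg
Hhip: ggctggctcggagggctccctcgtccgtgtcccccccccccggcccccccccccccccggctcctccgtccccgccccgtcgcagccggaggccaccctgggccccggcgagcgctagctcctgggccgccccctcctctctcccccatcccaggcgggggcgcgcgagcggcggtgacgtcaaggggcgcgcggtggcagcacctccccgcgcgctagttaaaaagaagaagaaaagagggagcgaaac
RefSeq gave an entry for 7 of the 9 members; *Gli1* and *Shh* were not matched. Motifs were searched on both strands: the GLI site GACCACCCA, its core ACCACCC (which the longer letters contain), the E-box CACGTG, and GTGGGG, which resembles part of a sterol response element. Among 32851 windows of the same length, 0.225% held the GLI site, 3.92% its core, 6.02% the E-box and 25.5% GTGGGG. The *Ihh* window held a single GTGGGG, and the *Ptch1* and *Hhip* windows held no match, which says only that these letters are not in these windows. *Gli2* held the GLI core, and *Smo*, *Gli2* and *Gli3* held GTGGGG. The windows shared a high GC content, 59.6% to 78.4% over the 7 members against a median of 52.4% over all windows.

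Levels of different genes were compared per kilobase of merged exons. In the uninjected libraries, which mix cell types, the order was *Ptch1* with 20.6 ± 1.44 CPM per kb and *Smo* with 20.6 ± 1.69 CPM per kb. They were followed by *Gli1* (12.4 ± 1.24), *Hhip* (10.7 ± 1.001), *Gli2* (6.67 ± 0.91), *Ihh* (5.59 ± 0.38), *Gli3* (4.01 ± 0.57) and *Dhh* (1.16 ± 0.27, all SD, n = 3). *Ptch1* and *Smo* did not differ beyond their spread, and the means of *Gli1* and *Hhip* lay within the sum of their SDs. *Ihh* was the ligand with the highest level. *Ptch1* already lay below *Smo* with the control vectors. *Ptch1* had 16.1 ± 1.11 CPM per kb with GFP and 16.7 ± 0.33 with ctrl sh, and *Smo* 23.99 ± 0.77 and 24.9 ± 1.79. *Hhip* had 9.30 ± 1.46 with GFP and 9.62 ± 0.91 with ctrl sh, and *Ihh* 5.82 ± 0.48 and 4.62 ± 0.44. With nSREBP2, *Smo* had 23.0 ± 0.16 CPM per kb, close to its level with GFP. *Ptch1* had 7.67 ± 0.15 and lay beside *Gli2* (7.39 ± 0.75). *Hhip* had 2.90 ± 0.29, and *Ihh* had 1.04 ± 0.48 and lay beside *Dhh* (1.09 ± 0.18). With *Lrp2* sh2, *Ptch1* had 7.91 ± 0.83 CPM per kb, *Hhip* 3.59 ± 0.34 and *Ihh* 1.16 ± 0.16.

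**Figure D1:**
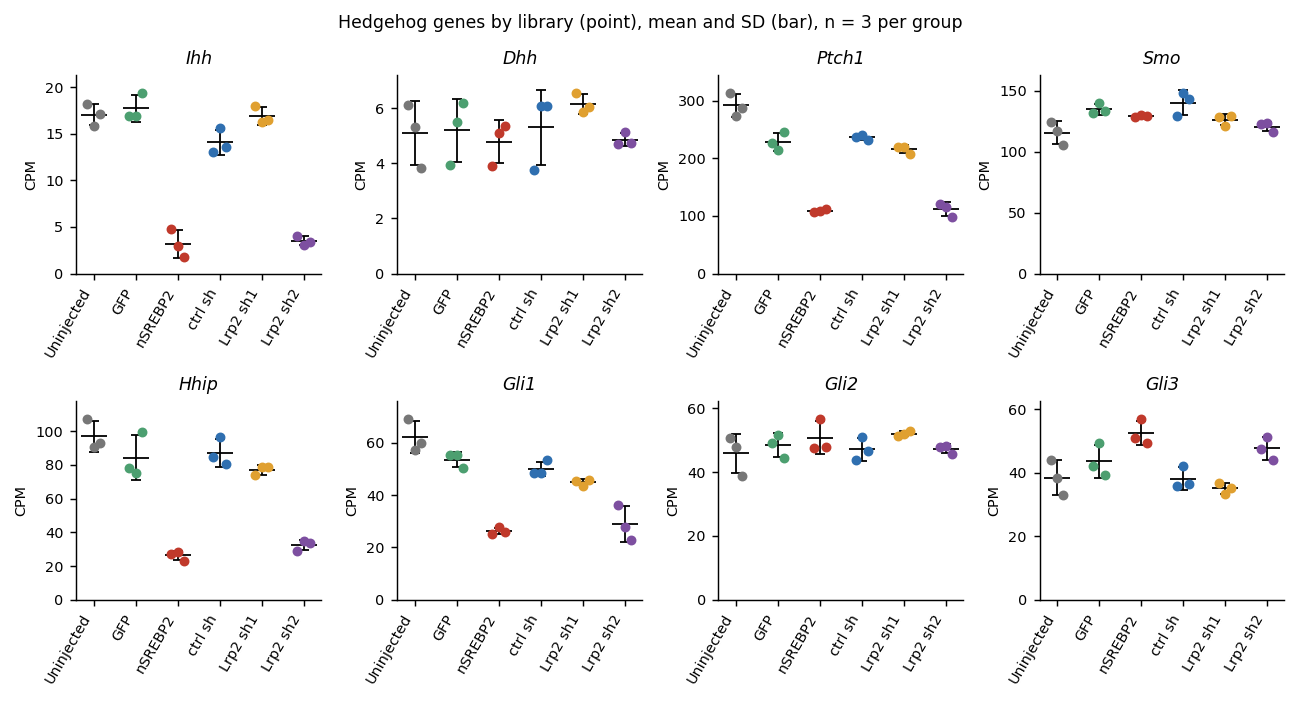
Level of the 8 detected hedgehog genes in each library (point, CPM on a linear axis from 0), with the mean and SD of each group of 3 as a bar. *Ihh*, *Ptch1*, *Hhip* and *Gli1* sit lower in all nSREBP2 and *Lrp2* sh2 libraries than in any library of the other 4 groups, whereas *Dhh* in all 3 treated groups, and *Gli2* with nSREBP2 and with *Lrp2* sh2, overlap the libraries of their control group.

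Of the ligands, *Ihh* changed. It had 18.2, 15.9 and 17.1 CPM in the uninjected libraries, 16.9, 16.9 and 19.4 CPM with GFP, and 4.74, 2.98 and 1.82 CPM with nSREBP2. All nSREBP2 libraries lay below all GFP libraries. The difference was 5.56-fold, with a log2 fold change (log2FC) of −2.48 ± 0.26 (SE) and an adjusted *P* of 0.000172 (edgeR quasi-likelihood test, as for every adjusted *P* here). *Ihh* had 13.1, 15.6 and 13.6 CPM with ctrl sh, 18.02, 16.3 and 16.5 CPM with *Lrp2* sh1, and 4.06, 3.11 and 3.41 CPM with *Lrp2* sh2. All *Lrp2* sh2 libraries were lower than all ctrl sh libraries, by 3.95-fold (log2FC −1.98 ± 0.16, adjusted *P* = 0.000105, edgeR), whereas all *Lrp2* sh1 libraries were higher than all ctrl sh libraries by a difference that did not pass (log2FC 0.26 ± 0.10, 95% interval 0.03 to 0.50, adjusted *P* = 0.201, edgeR). From high to low the group means were GFP (17.7 ± 1.45 CPM), uninjected (17.05 ± 1.15), *Lrp2* sh1 (16.9 ± 0.96), ctrl sh (14.1 ± 1.34), *Lrp2* sh2 (3.53 ± 0.49) and nSREBP2 (3.18 ± 1.47; SD, n = 3). Neighbors in the first 3 places and in the last 2 overlapped, and no library lay between 4.74 and 13.1 CPM. In bulk RNA, fewer cells of a type and less RNA per cell cannot be told apart.

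*Dhh*, the desert hedgehog ligand known from Schwann cells and testis, showed no detectable difference in the 3 comparisons of the study. Per kilobase its mean was below that of *Ihh* in 4 groups and close to it with nSREBP2 and with *Lrp2* sh2. Its libraries ranged from 3.74 to 6.56 CPM over all 6 groups, and each treated group overlapped its control group. The *Lrp2* sh1 libraries, at 5.86 CPM or more, lay above all nSREBP2 and *Lrp2* sh2 libraries. The log2FC was −0.12 ± 0.23 with nSREBP2 (95% interval −0.63 to 0.40), 0.22 ± 0.20 with *Lrp2* sh1 (−0.24 to 0.67) and −0.11 ± 0.22 with *Lrp2* sh2 (−0.60 to 0.38), and none passed. *Shh*, the sonic hedgehog ligand of retinal ganglion cells, had 1 count in nSREBP2 replicate 3, 1 count in *Lrp2* sh2 replicate 2, and 0 counts in the other 16 libraries. With 0 counts seen, as many as 3 remain possible, which is between 0.216 and 0.327 CPM across the libraries, so *Shh* was not detectable at this depth and was not tested. These limits cover counting error only.

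*Ptch1*, the receptor for all hedgehog ligands, fell with *Ihh*. It had 314, 274 and 288 CPM in uninjected libraries, 226, 214 and 245 CPM with GFP, and 107, 108 and 111 CPM with nSREBP2. The nSREBP2 libraries did not overlap the GFP libraries (2.09-fold lower, log2FC −1.07 ± 0.07, adjusted *P* = 1.27e-05, edgeR). With ctrl sh it had 237, 241 and 231 CPM, with *Lrp2* sh1 220.0, 219.9 and 208 CPM, and with *Lrp2* sh2 121, 116 and 99.0 CPM. The decrease with *Lrp2* sh2 was also 2.09-fold (log2FC −1.07 ± 0.08, adjusted *P* = 8.60e-05, edgeR). *Lrp2* sh1 libraries lay just below the ctrl sh libraries without overlap, but the difference of −0.13 ± 0.05 on the log2 scale did not pass (adjusted *P* = 0.211, edgeR).

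*Smo*, which passes the signal across the membrane and is not itself a usual target, did not follow *Ptch1*. Its libraries lay between 105 and 148 CPM in all 6 groups, with 132, 139.8 and 133 CPM for GFP and 129, 130.3 and 129.6 CPM for nSREBP2. The log2FC was −0.05 ± 0.06 with nSREBP2 (95% interval −0.19 to 0.08), −0.15 ± 0.07 with *Lrp2* sh1 (−0.30 to −0.0028) and −0.21 ± 0.07 with *Lrp2* sh2 (−0.37 to −0.05). None passed, although the adjusted *P* for *Lrp2* sh2, 0.0758, fell to 0.0302 when all 18 libraries were fitted together and to 0.0240 without ctrl sh replicate 1 (edgeR).

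*Hhip*, a membrane protein that binds hedgehog ligands and keeps them from patched, had the second largest decrease of the 8 tested members, after *Ihh*, with nSREBP2 and with *Lrp2* sh2. It had 107, 90.4 and 93.1 CPM in uninjected libraries, 78.2, 75.3 and 99.6 CPM with GFP, and 27.3, 28.4 and 23.3 CPM with nSREBP2. The highest nSREBP2 library was well under the lowest GFP library (3.19-fold lower on average, log2FC −1.67 ± 0.12, adjusted *P* = 1.85e-05, edgeR). It had 84.4, 96.5 and 80.9 CPM with ctrl sh, 73.8, 78.9 and 79.1 CPM with *Lrp2* sh1, and 29.2, 35.0 and 33.7 CPM with *Lrp2* sh2. The *Lrp2* sh2 libraries again stood apart (2.66-fold lower, log2FC −1.41 ± 0.10, adjusted *P* = 5.24e-05, edgeR). For *Lrp2* sh1 the log2FC was −0.18 ± 0.07 (adjusted *P* = 0.220, edgeR), and all its libraries were below all ctrl sh libraries by a small margin.

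*Gli1*, the activator whose transcription depends on the signal itself, had 69.1, 57.2 and 60.03 CPM in uninjected libraries, 55.1, 55.3 and 50.2 CPM with GFP, and 25.3, 27.7 and 25.8 CPM with nSREBP2. That was 2.03-fold lower than GFP without overlap (log2FC −1.02 ± 0.08, adjusted *P* = 2.62e-05, edgeR). It had 48.4, 48.5 and 53.2 CPM with ctrl sh, 45.2, 43.5 and 45.9 CPM with *Lrp2* sh1, and 36.2, 27.7 and 22.9 CPM with *Lrp2* sh2. The *Lrp2* sh2 libraries were spread more widely than those of any other group for this gene (SD 6.76 CPM), but all 3 were below ctrl sh (1.72-fold, log2FC −0.78 ± 0.14, adjusted *P* = 0.00523, edgeR). The log2FC with *Lrp2* sh1 was −0.16 ± 0.07 (adjusted *P* = 0.222, edgeR).

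*Gli2* and *Gli3* encode the GLI factors that are present before any signal arrives, and GLI3 acts mostly as a repressor when hedgehog is absent. *Gli2* lay between 38.9 and 56.7 CPM in every library, with a log2FC of 0.07 ± 0.09 with nSREBP2 (95% interval −0.13 to 0.28), 0.14 ± 0.07 with *Lrp2* sh1 (−0.02 to 0.30) and 0.01 ± 0.08 with *Lrp2* sh2 (−0.16 to 0.18). Its *Lrp2* sh1 libraries lay above all ctrl sh and all *Lrp2* sh2 libraries by a narrow gap, and none of the 3 log2FC values passed. *Gli3* had 42.1, 49.4 and 39.2 CPM with GFP, and 51.1, 56.9 and 49.5 CPM with nSREBP2. All nSREBP2 libraries were above all GFP libraries by a narrow gap, and the log2FC of 0.28 ± 0.10 did not pass (adjusted *P* = 0.0759, edgeR). With ctrl sh, *Gli3* had 35.7, 42.2 and 36.6 CPM, with *Lrp2* sh1 36.8, 33.3 and 35.3 CPM, and with *Lrp2* sh2 47.5, 51.4 and 44.0 CPM. It rose with *Lrp2* sh2 by 1.26-fold without overlap (log2FC 0.33 ± 0.09, adjusted *P* = 0.0346, edgeR), a call that did not hold without ctrl sh replicate 1 (0.0985) or 3 (0.128) or without *Lrp2* sh2 replicate 1 (0.0782) or 2 (0.127), nor in DESeq2 (0.0511). The direction was the opposite of that of *Gli1*.

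**Figure D2:**
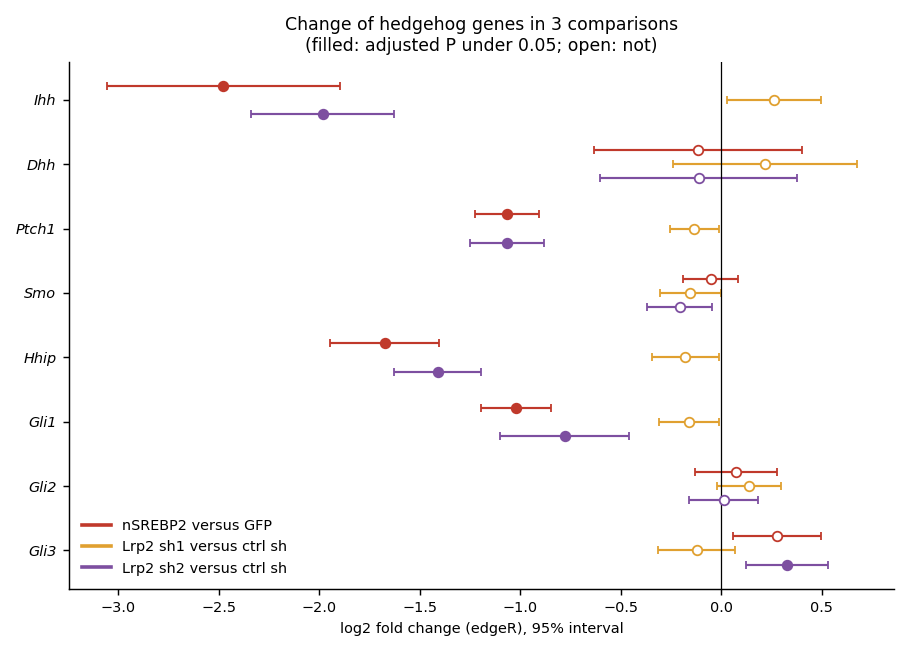
Log2FC of 8 hedgehog genes in the 3 comparisons of the study (horizontal axis, edgeR, with 95% intervals), with filled points for an adjusted *P* under 0.05. *Ihh*, *Hhip*, *Ptch1* and *Gli1* are filled and left of 0 for nSREBP2 and *Lrp2* sh2, and every *Lrp2* sh1 point is open and lies between −0.18 and 0.26.

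In nSREBP2 versus GFP, which asks what differed in these libraries with active SREBP2, 4 of the 8 tested members passed at an adjusted *P* under 0.05 (edgeR), against 21% of all genes tested. All 4 fell, against 8.47% of all genes, and all 4 also had a log2FC under −1, against 1.96%. The median log2FC was −0.57 over the 8 members and −0.02 over all genes. Sex differed in this comparison: summed counts of Y-linked genes were 2770 to 2901 for nSREBP2 and no more than 4 for GFP. When sex was added to a model over the 18 libraries, the log2FC was −2.36 for *Ihh*, −0.97 for *Ptch1*, −0.74 for *Gli1* and −1.74 for *Hhip*, with adjusted *P* of at most 0.00283 (edgeR). Sex and vector cannot be told apart within nSREBP2 and GFP. The sex term rests on the uninjected and *Lrp2* sh2 groups, which hold both sexes, and assumes the same effect of sex in every group. The uninjected library with Y-linked counts, replicate 3, lay between the other uninjected libraries for each of these 4 genes.

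In *Lrp2* sh2 versus ctrl sh, 5 of the 8 tested members passed (edgeR), against 18.1% of all genes. The 4 that fell were *Ihh*, *Ptch1*, *Hhip* and *Gli1*, against 9.48% of all genes, and *Ihh*, *Ptch1* and *Hhip* also had a log2FC under −1, against 1.78%. *Gli3* was the member that rose. The median log2FC was −0.49 over the members and 0.01 over all genes. Sex differed in part here: Y-linked counts were 3630 and 3625 in replicates 2 and 3 of *Lrp2* sh2, 1 in replicate 1, and at most 4 with ctrl sh. Replicate 1 of *Lrp2* sh2 lay below all ctrl sh libraries in *Ihh*, *Ptch1*, *Hhip* and *Gli1*. Among the *Lrp2* sh2 libraries it was the highest in *Ihh* (4.06 CPM), *Ptch1* (121) and *Gli1* (36.2) and the lowest in *Hhip* (29.2).

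In *Lrp2* sh1 versus ctrl sh, 0 of the 8 tested members passed in edgeR and 0 in DESeq2, against 5.33% of all genes in edgeR. At an unadjusted *P* under 0.05 (edgeR) there were 5, with no share of all genes counted. Of these, *Ptch1*, *Smo*, *Gli1* and *Hhip* were lower and *Ihh* was higher. The 95% interval of each lower member reached no further than −0.35 on the log2 scale, for *Hhip*. *Lrp2* itself fell by 1.68 ± 0.22 (adjusted *P* = 0.00328) with *Lrp2* sh1 and fell by 1.60 ± 0.21 (adjusted *P* = 0.00109) with *Lrp2* sh2 on the log2 scale (edgeR). Set against the uninjected libraries in place of ctrl sh, 3 members passed for *Lrp2* sh1 (edgeR), all lower. They were *Ptch1* (log2FC −0.44), *Gli1* (−0.47) and *Hhip* (−0.33), and no share of all genes was counted. Ctrl sh itself, against the same uninjected libraries, had a log2FC of −0.31, −0.32 and −0.16 for these genes. The comparison with uninjected libraries thus includes the change seen with the control vector.

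The hairpins were compared with each other. Between *Lrp2* sh2 and *Lrp2* sh1, 5 of the 8 tested members passed (edgeR), against 22.4% of all genes. *Ihh* was 4.75-fold lower with *Lrp2* sh2 (log2FC −2.25 ± 0.15, adjusted *P* = 6.35e-06), *Hhip* 2.36-fold, *Ptch1* 1.92-fold and *Gli1* 1.54-fold lower, and *Gli3* was 1.36-fold higher (log2FC 0.45 ± 0.08, adjusted *P* = 0.00229, edgeR). *Lrp2* did not differ detectably between them, at 38.6 ± 4.58 CPM with *Lrp2* sh2 and 36.9 ± 6.61 CPM with *Lrp2* sh1 (log2FC 0.08, 95% interval −0.22 to 0.37, adjusted *P* = 0.728, edgeR). The comparisons of each hairpin with ctrl sh share the ctrl sh libraries. Sex differed in part between the hairpins: Y-linked counts were at most 10 with *Lrp2* sh1, and 1, 3630 and 3625 in *Lrp2* sh2 replicates 1, 2 and 3. With sex as a term over all 18 libraries, the log2FC was −2.18 for *Ihh*, −0.88 for *Ptch1*, −0.45 for *Gli1*, −1.29 for *Hhip* and 0.54 for *Gli3*, with adjusted *P* of at most 0.0162 (edgeR).

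The effect of nSREBP2 over GFP was tested against the effect of each hairpin over ctrl sh in a single fit. Against *Lrp2* sh1, 4 of the 8 tested members differed (edgeR), against 9.75% of all genes. The differences were −2.75 ± 0.27 for *Ihh*, −1.50 ± 0.16 for *Hhip*, −0.94 ± 0.11 for *Ptch1* and −0.87 ± 0.16 for *Gli1* on the log2 scale. Against *Lrp2* sh2, 0 of 8 differed in edgeR, with 0 also at an unadjusted *P* under 0.05, against 5.63% of all genes; DESeq2 was not run on this contrast. The intervals of the difference still allowed a change from −1.10 to 0.12 for *Ihh*, −0.22 to 0.23 for *Ptch1*, −0.59 to 0.11 for *Gli1* and −0.59 to 0.07 for *Hhip*. Among these genes, the difference between the effects was bounded most closely for *Ptch1*. Without nSREBP2 replicate 1, the nSREBP2 library with the most *Ihh*, the difference for *Ihh* was −0.89 and passed with an adjusted *P* of 0.0495 (edgeR). Of the groups in the contrast with *Lrp2* sh1, only nSREBP2 had more than 10 Y-linked counts in any library. With sex as a term, the difference from *Lrp2* sh1 did not pass for *Gli1* (adjusted *P* = 0.0530, edgeR).

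Control groups were compared to see how the vectors themselves moved these genes. In GFP versus uninjected, 0 of 8 members passed in edgeR, against 2.48% of all genes, with 3 at an unadjusted *P* under 0.05 and 1 (*Ptch1*) in DESeq2. All GFP and all ctrl sh libraries lay below all uninjected libraries in *Ptch1*, and above all of them in *Smo*. In ctrl sh versus uninjected, 0 of 8 passed in edgeR, against 6.49% of all genes, with 4 at an unadjusted *P* under 0.05 and 1 (*Ptch1*) in DESeq2. The log2FC of *Ptch1* was −0.37 ± 0.09 with GFP and −0.31 ± 0.08 with ctrl sh, and that of *Gli1* was −0.23 ± 0.09 and −0.32 ± 0.09, where both comparisons share the uninjected libraries. *Smo* went the other way, with a log2FC of 0.21 with GFP and 0.27 with ctrl sh. When all 18 libraries were fitted together, *Smo* passed in both (adjusted *P* = 0.0484 and 0.0109, edgeR). In ctrl sh versus GFP, 0 of 8 passed in edgeR and 0 in DESeq2, against 2.68% of all genes in edgeR, and *Ihh* alone had an unadjusted *P* under 0.05 (log2FC −0.34 ± 0.11, adjusted *P* = 0.201, edgeR). Among these control comparisons, no share of all genes was counted for an unadjusted *P* or for DESeq2. When all 6 groups were tested together, 6 of the 8 tested members differed somewhere among the groups (edgeR), against 48.7% of all genes: *Ihh*, *Ptch1*, *Gli1*, *Hhip*, *Gli3* (adjusted *P* = 0.00148) and *Smo* (0.0189), and not *Gli2* (0.475) or *Dhh* (0.662). *Smo* did not pass without ctrl sh replicate 3 (0.0515).

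**Figure D3:**
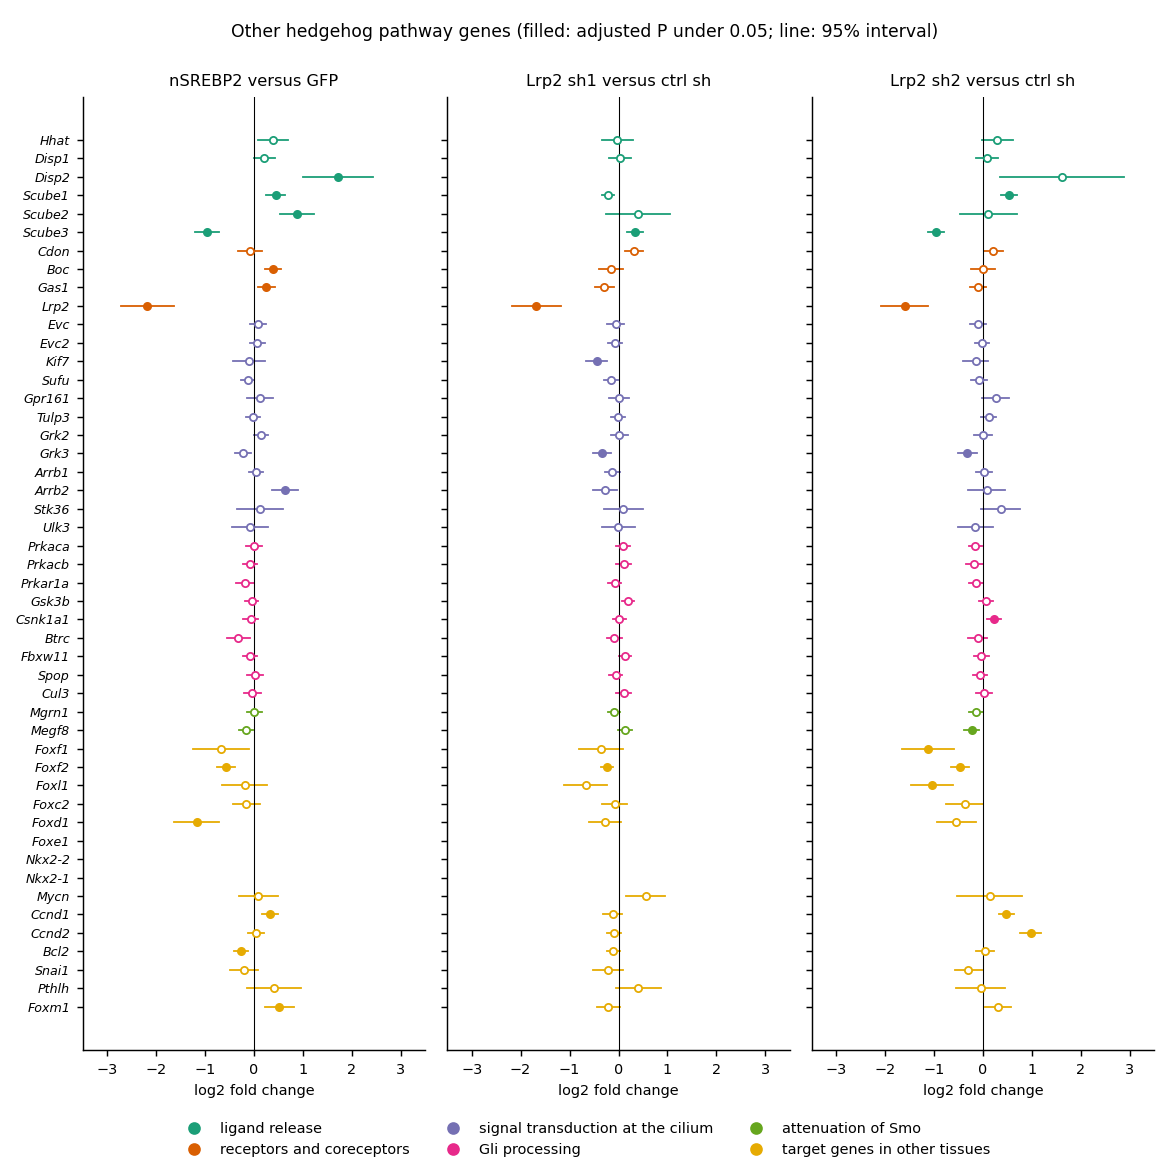
Log2FC of other genes of the hedgehog pathway, with *Lrp2* included (rows, grouped by role in color) in the 3 comparisons of the study (panels), with 95% intervals and filled points for an adjusted *P* under 0.05. *Scube3* is filled and left of 0 for nSREBP2 and for *Lrp2* sh2, and most genes of signal transduction and Gli processing are open and near 0.

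Other genes of the pathway were taken from a list of 48, with *Lrp2* left out. With nSREBP2, 45 were tested, 8 rose and 5 fell (edgeR), which is 13 of 45 against 21% of all genes, and their median log2FC was −0.03. *Foxd1*, a forkhead factor, fell by 1.17 ± 0.21 and *Scube3*, a secreted protein of a family that helps release hedgehog ligand, by 0.96 ± 0.11 on the log2 scale. Those that rose most were *Disp2* (log2FC 1.71 ± 0.32, from 0.88 to 2.88 CPM), a relative of the transporter that lets hedgehog leave the cell, *Scube2* (0.87 ± 0.16) and *Arrb2* (0.63 ± 0.12), a beta-arrestin. By role, 3 of 6 genes of ligand release rose and 1 fell. Of 4 receptors and coreceptors, *Boc* and *Gas1* rose and 1 fell. Of 12 tested target genes of other tissues, 2 rose and 3 fell. No gene of Gli processing was among the 13.

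With *Lrp2* sh2, 45 of the 48 were tested, 4 rose and 7 fell (edgeR), which is 11 of 45 against 18.1% of all genes, with a median log2FC of −0.04. *Foxf1* fell by 1.13 ± 0.24 and *Foxl1* by 1.05 ± 0.19 on the log2 scale; both are forkhead genes that answer hedgehog in gut mesenchyme. *Scube3* fell by 0.95 ± 0.07, from a mean of 83.0 CPM with ctrl sh to 42.6 CPM. Its mean was 44.7 CPM with GFP and 55.4 CPM in uninjected libraries, so the ctrl sh level was itself higher than in the other controls. The genes that rose most were the cyclins *Ccnd2* (log2FC 0.97 ± 0.10) and *Ccnd1* (0.48 ± 0.07) and, between them, *Scube1* (0.53 ± 0.07). With *Lrp2* sh1, 44 were tested, *Scube3* rose (0.34 ± 0.07), and *Kif7* (−0.44 ± 0.10), *Grk3* (−0.34 ± 0.08) and *Foxf2* (−0.23 ± 0.05) fell, which is 4 of 44 against 5.33% of all genes, with a median log2FC of −0.08. That count of 4 ran from 0 to 8 when single libraries were left out, at 8 without ctrl sh replicate 1 and at 0 or 1 without any other.

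*Ihh* was set beside 12 endothelium markers, since the choroidal endothelium makes it. With nSREBP2, 8 of the 12 markers fell, with *Lrp2* sh2 10 fell, and with *Lrp2* sh1 1 fell (*Esam*). Their summed level was 3007 to 3488 CPM in uninjected, 2751 to 3518 CPM in GFP and 2255 to 2499.8 CPM in nSREBP2 libraries. It was 2953 to 3093 CPM with ctrl sh, 2693 to 2927 CPM with *Lrp2* sh1 and 1982 to 2187 CPM with *Lrp2* sh2, so the sum was lower with nSREBP2 and with *Lrp2* sh2, without overlap with their controls, but by less than *Ihh*. With *Lrp2* sh1 the sum also lay below that of all ctrl sh libraries, by a narrow gap, while *Ihh* lay above. Expressed as a percentage of that sum, *Ihh* was 0.588% ± 0.032 with GFP and 0.132% ± 0.055 with nSREBP2, a ratio of 0.224. It was 0.465% ± 0.037 with ctrl sh, 0.597% ± 0.036 with *Lrp2* sh1 and 0.169% ± 0.025 with *Lrp2* sh2 (SD, n = 3), a ratio to ctrl sh of 0.363 for *Lrp2* sh2. *Vwf* had the highest mean of these markers in every group. With the median of the markers in place of their sum, the ratios were 0.250 and 0.343. *Plvap*, which forms the diaphragms of fenestrated capillaries such as the choriocapillaris, fell by 0.92 ± 0.09 with nSREBP2 and by 0.95 ± 0.06 with *Lrp2* sh2 on the log2 scale. The 4 markers that did not pass with nSREBP2 had, with GFP and then nSREBP2, 201 and 217 CPM (*Pecam1*), 372 and 310 (*Cdh5*), 62.0 and 61.1 (*Erg*), and 741 and 743 (*Vwf*). No marker of the list was absent from any group. *Ihh* was lower relative to the endothelium markers as well as to all genes; the part of the endothelium in the changes of *Ptch1*, *Hhip* and *Gli1* was not tested.

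**Figure D4:**
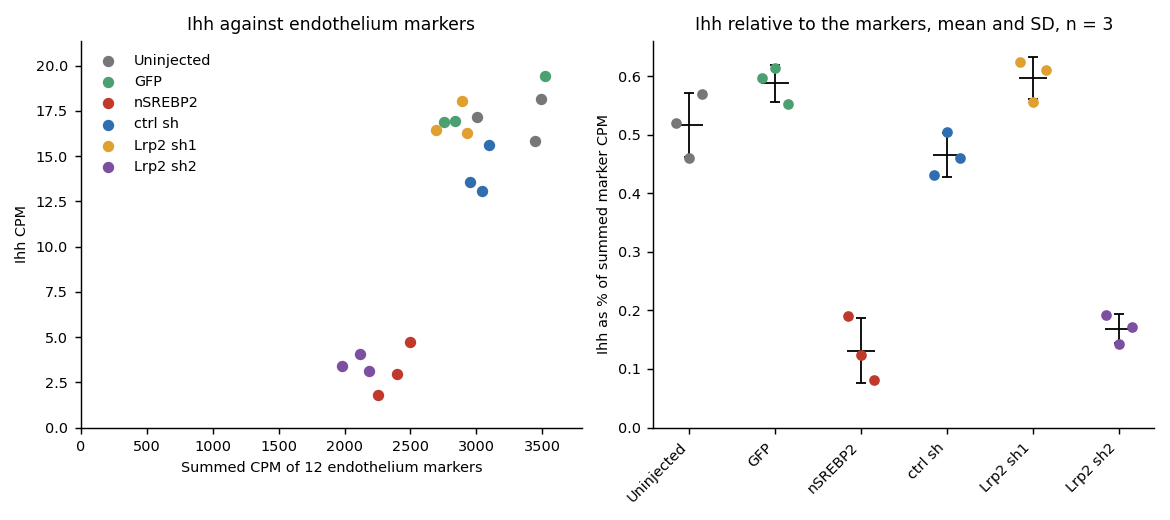
Left, *Ihh* (CPM) against the summed CPM of 12 endothelium markers, with 1 point per library and both axes from 0. Right, *Ihh* as a percentage of that sum with the mean and SD of 3 libraries per group, which is 0.132% for nSREBP2 and 0.169% for *Lrp2* sh2 and at least 0.465% for the means of the other 4 groups.

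Markers of other cells also moved with these comparisons. Of 8 fibroblast markers, which include collagens of sclera, 7 rose with nSREBP2 and 3 with *Lrp2* sh2; their sum was 34729.5 to 43991 CPM with GFP and 71661 to 85743 CPM with nSREBP2, and 32953 to 46915 CPM with ctrl sh and 42326.5 to 50943 CPM with *Lrp2* sh2. Of 8 mural cell markers, 4 fell with nSREBP2, 3 with *Lrp2* sh1, and 5 fell and 1 rose with *Lrp2* sh2; the sums were 3080 to 3986 CPM with GFP, 2477 to 2851 with nSREBP2, 3378 to 3604 with ctrl sh, 2748 to 3037 with *Lrp2* sh1 and 2573 to 3180.2 with *Lrp2* sh2. Of 8 rod markers, 2 rose with nSREBP2 and 7 with *Lrp2* sh2, with sums of 31.4 to 285 CPM (GFP), 246 to 354 (nSREBP2), 14.4 to 44.2 (ctrl sh) and 83.7 to 400.1 CPM (*Lrp2* sh2). Of 10 RPE markers, 2 rose and 3 fell with nSREBP2 and 5 fell with *Lrp2* sh2, with sums of 2652 to 2806 CPM (GFP), 2140.1 to 2864 (nSREBP2), 3655 to 5651 (ctrl sh) and 2051 to 2357 CPM (*Lrp2* sh2). Schwann cells are known to make *Dhh* in nerve, and their 8 markers summed to 569.5 to 711 CPM with GFP and 531 to 689 CPM with nSREBP2, where their median log2FC was −0.08. With *Lrp2* sh2, *Pmp22* fell and the other 7 did not pass. The retinal ganglion cell factors *Pou4f1* and *Pou4f2*, markers of the cells known to make *Shh*, had at most 0.319 CPM in any library. Their list of 8 was not absent as a whole. *Rbpms* had group means from 66.4 CPM (nSREBP2) to 97.5 CPM (uninjected), and *Isl1* had a mean of 2.53 CPM with nSREBP2. Of that list, 4 were tested with nSREBP2, where 1 rose and 1 fell, and 2 were tested with *Lrp2* sh2, where 1 rose. The part of these cells in the changes of hedgehog genes was not tested.

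Likeness was measured as the Pearson correlation of log2(CPM + 0.5) with each other gene of at least 1 CPM on average, 17346 genes in all, over 18 libraries that share their groups and are not independent points. *Ihh* was most like *Hhip* (r = 0.963), *Plvap* (0.955) and *Tnfsf10* (0.953), *Hhip* was most like *Ramp3* (0.976), *Plvap* (0.975) and *Ptch1* (0.972), and *Ptch1* was most like *Plvap* (0.985), *Ptpru* (0.975) and *Hhip* (0.972). Part of that likeness lay between groups: after the group means were removed, *Ihh* and *Hhip* had r = 0.390, *Ptch1* and *Plvap* 0.215, and *Ptch1* and *Hhip* 0.269, while *Ihh* and *Plvap* kept 0.666 and *Hhip* and *Ramp3* 0.716. *Gli1* had r = 0.968 with *Ptch1* and 0.959 with *Ptpru*. *Gli3* was most like *Trim36* (0.927), *Tgfbr1* (0.894) and *Tnfrsf21* (0.886), and *Smo* most like *Angptl2* (0.872), *Fam168b* (0.836) and *Gpatch2l* (0.827). *Gli2* (*AC126262.2*, 0.795; *Fbxo42*, 0.745) and *Dhh* (*Slfn3*, 0.699; *Bola2*, 0.697; *Fyn*, 0.687) had no gene as close.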

How the data were processed

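RNA was measured by sequencing in 18 libraries of mouse RPE, grouped by their sample labels into 6 groups of 3. The authors removed ribosomal RNA, made libraries with a directional kit, mapped reads to GRCm38 and counted them with STAR, and deposited raw counts, as integers, for each gene. Which annotation was used, and whether strand entered the counting, is not given in the sources used here. Every pair of replicates was checked for duplication (chi-square over genes); the closest pair differed by 3.30 times its degrees of freedom, so none was counted as a duplicate.

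edgeR 4.0.16 (R 4.3.3) was fitted to all genes of the 2 groups compared (filterByExpr, TMM, glmQLFit, glmQLFTest), and *P* was adjusted (Benjamini-Hochberg) over all genes tested at a threshold of 0.05. The SE is the absolute log2FC divided by the square root of F. Differences of effects and the test over 6 groups used a fit of all 18 libraries. On counts simulated from the nSREBP2 and GFP libraries, with the same spread for all genes, the fit recovered most of the changes it was given. Changes with an absolute log2FC below 1 were not simulated, so their recovery was not tested. A depth of 8921885 to 13696934 counts allows up to 0.327 CPM for a count of 0 (3 counts). DESeq2 1.42.0, other size factors and filters, the authors' fold limit, a replicate block, sex as a term, uninjected controls and the omission of each library were tried as alternatives. Shares of all genes were counted for the adjusted *P* of the main edgeR fits, and not for an unadjusted *P* or an alternative.

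Members and lists were chosen with earlier results of these data known. Named were all 9 members, *Lrp2*, *Srebf2*, in each comparison of the study the 3 pathway genes that passed with the largest log2FC in each direction, and the 3 genes most like each member, except a few genes that are not reported here. Genes named beyond this to spell out a count were chosen after their values were seen. Positions, overlaps and exon lengths were taken from GENCODE M21, and promoters from RefSeq (GRCm38.p6). The labels do not say that replicates came from separate litters or injection days, so *P*-values measure the spread between these libraries.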

Additional observations from a re-analysis of the deposited data

Results flagged for a closer look

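Several effects differed between groups in a test of the difference itself (edgeR, adjusted *P* under 0.05). The change with nSREBP2 over GFP was lower than the change with *Lrp2* sh1 over ctrl sh by −2.75 for *Ihh*, −0.94 for *Ptch1*, −0.87 for *Gli1* and −1.50 for *Hhip* on the log2 scale. With the 2 hairpins against *Lrp2*, the log2 difference of *Lrp2* sh2 from *Lrp2* sh1 was −2.25 for *Ihh*, −0.94 for *Ptch1*, −0.62 for *Gli1*, −1.24 for *Hhip* and 0.45 for *Gli3*. In each case all 3 *Lrp2* sh2 libraries lay on the same side of all 3 *Lrp2* sh1 libraries. Sex differed in both tests. Y-linked counts were 2770 or more in all nSREBP2 libraries and in *Lrp2* sh2 replicates 2 and 3. They were at most 10 in all GFP, ctrl sh and *Lrp2* sh1 libraries. With sex as a term, the difference between the effects of nSREBP2 and of *Lrp2* sh1 did not pass for *Gli1* (adjusted *P* = 0.0530, edgeR). These hairpins lowered *Lrp2* to 38.6 ± 4.58 CPM (*Lrp2* sh2) and 36.9 ± 6.61 CPM (*Lrp2* sh1; SD, n = 3). Markers of several cell types moved with the difference (edgeR, adjusted *P* under 0.05). With *Lrp2* sh2, 11 of 12 endothelium markers were lower than with *Lrp2* sh1 (median log2FC −0.46), as were 7 of 10 RPE markers (median −1.49), 4 of 8 mural cell markers (with 1 higher) and 3 of 8 Schwann cell markers. Higher were all 8 rod markers, 2 of the 7 fibroblast markers tested and 1 of the 2 retinal ganglion cell markers tested. The part of these cells in the difference was not tested.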

How the results depend on the processing

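*Ihh*, *Ptch1*, *Gli1* and *Hhip* passed and kept their direction in nSREBP2 versus GFP, in *Lrp2* sh2 versus ctrl sh and in *Lrp2* sh2 versus *Lrp2* sh1 under every alternative of the adjusted *P* alone. Of 752 log2FC values of members under an alternative, 684 kept their sign and their side of the threshold, 18 passed where the reported value did not, 6 did not pass where it did (all *Gli3* in *Lrp2* sh2 versus ctrl sh), and 44 changed sign with no call in either fit. With the authors' fold limit added, pathway genes called went from 13 to 3 (nSREBP2), 4 to 0 (*Lrp2* sh1) and 11 to 2 (*Lrp2* sh2), and members called went from 5 to 3 for *Lrp2* sh2 versus ctrl sh (*Gli1* and *Gli3* were left out) and from 5 to 2 for *Lrp2* sh2 versus *Lrp2* sh1 (*Ihh* and *Hhip* stayed). Against uninjected libraries, 20 pathway genes passed for nSREBP2 and 11 for *Lrp2* sh1, and 3 members for *Lrp2* sh1, with no share of all genes counted. For *Lrp2* sh1, pathway calls were 2 in a fit of all 18 libraries, 1 with sex as a term and 0 to 8 with single libraries left out. For *Lrp2* sh2 they were 7 with sex as a term and 7 to 11 with single libraries left out (7 without ctrl sh replicate 2 or 3). In GFP versus uninjected, 1 member passed in DESeq2, 2 with all 18 libraries and 1 with sex as a term, and in ctrl sh versus uninjected 1, 2 and 3. Shares of all genes were not counted under these alternatives. Members that differed between the effects of nSREBP2 and of *Lrp2* sh2 ran from 0 to 1 with single libraries left out. Those that differed between the effects of nSREBP2 and of *Lrp2* sh1 went from 4 to 3 with sex as a term. The causes were not tested. Replicate numbers did not pair the libraries: in the 3 comparisons of the study the correlation of deviations of same-numbered libraries was −0.31 to −0.06. With the replicate block, 0 pathway genes passed for *Lrp2* sh1, and 5 members in nSREBP2 versus GFP, where *Gli3* was added (log2FC 0.28, adjusted *P* = 0.0389, edgeR). Where an omission left 2 libraries in a group, small changes are less detectable.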

Other observations

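Some pathway genes differed between the control groups, and were chosen here after their values were seen. *Scube3* was 83.0 CPM with ctrl sh, 44.7 CPM with GFP and 55.4 CPM in uninjected libraries on average, and it was higher with ctrl sh than with GFP (log2FC 0.89 ± 0.09, adjusted *P* = 0.00137) and than in uninjected libraries (0.57 ± 0.09, adjusted *P* = 0.0134, edgeR). *Ccnd1*, a D-type cyclin, was higher with ctrl sh by 0.44 ± 0.07 against GFP and 0.48 ± 0.11 against uninjected libraries on the log2 scale. *Prkaca*, a catalytic subunit of the kinase that primes GLI proteins for processing, was higher by 0.32 ± 0.06 and 0.41 ± 0.09. Both comparisons share the ctrl sh libraries. With *Lrp2* sh1, which has the same control, *Scube3* reached 105 CPM, and with *Lrp2* sh2 it was 42.6 CPM, and the log2 difference of *Lrp2* sh2 from *Lrp2* sh1 was −1.30 ± 0.06.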
